A study of Mus musculus with 2 samples.

Results

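Fibroblasts of the tumour stroma were taken as the cells that the authors' annotation placed in the cluster named Fibroblast&Endothelial_1, called the fibroblast cluster here. It held 148 of 11247 cells, with 96 of 5482 in the SIGLEC15 antibody library and 52 of 5765 in the IgG library. The grafts grew from Hep1-6, a mouse hepatoma cell line, in male wild-type C57BL/6 mice aged 6 to 8 weeks on a normal diet in specific pathogen free housing. Mice were injected intraperitoneally with an antibody to SIGLEC15, a sialic acid-binding receptor studied as an immune checkpoint, or with IgG as the control. The design text gives 3 mice per group, but there was 1 library per group and the cells were not tied to mice, so no value has a replicate check. Cells enriched with CD45 beads were mixed in equal parts with unsorted cells before 10x single-cell 3' sequencing, so shares of cells depend on that mix. All intervals are exact 95% intervals that cover counting error only.

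Fibroblasts build and remodel the connective tissue around tumour cells. They secrete fibrillar collagens, the enzymes that fold, trim and crosslink them, and the microfibrils on which elastin is laid down. In tumours, fibroblasts are commonly described along contractile, inflammatory and adventitial lines. Contractile cells carry smooth muscle actin, inflammatory cells secrete chemokines and prostaglandins, and adventitial cells, marked by Pi16 and Dpt, resemble those around vessels in healthy tissue. Pericytes and endothelial cells of the vessel wall share some of these genes and are told apart by markers such as Rgs5 and Cdh5.

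The 150 bases before the transcript start are shown for 4 matrix genes that mark the cluster, and for Lrrc15 and Pi16, which stand for the contractile and adventitial sides of the cluster described further on. The sequences are from RefSeq, build GRCm38.p6, and Col1a1 and Mfap5 are named only. Col1a2 is at chr6:4505468-4505617 on the plus strand, Col3a1 at chr1:45311388-45311537 on the plus strand and Fbn1 at chr2:125506439-125506588 on the minus strand. Fbln2 is at chr6:91212614-91212763 on the plus strand, Lrrc15 at chr16:30283255-30283404 on the minus strand and Pi16 at chr17:29318732-29318881 on the plus strand. Capitals mark matches on either strand to CCAAT (the CCAAT box), TATAAA (the TATA box), GGAATG (the TEAD motif) or TGANTCA (the AP-1 motif).
Col1a2: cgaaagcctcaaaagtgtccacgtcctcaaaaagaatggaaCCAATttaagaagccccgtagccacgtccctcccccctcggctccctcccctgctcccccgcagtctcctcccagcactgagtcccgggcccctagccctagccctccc
Col3a1: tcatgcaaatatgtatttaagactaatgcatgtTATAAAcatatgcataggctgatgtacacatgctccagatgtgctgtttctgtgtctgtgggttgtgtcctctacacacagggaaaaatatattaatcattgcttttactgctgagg
Fbn1: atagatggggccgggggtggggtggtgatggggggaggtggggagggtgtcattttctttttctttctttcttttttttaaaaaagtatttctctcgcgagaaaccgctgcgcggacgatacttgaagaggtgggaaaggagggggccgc
Fbln2: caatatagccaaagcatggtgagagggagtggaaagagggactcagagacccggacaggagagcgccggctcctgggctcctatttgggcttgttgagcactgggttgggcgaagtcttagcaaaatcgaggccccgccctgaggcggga
Lrrc15: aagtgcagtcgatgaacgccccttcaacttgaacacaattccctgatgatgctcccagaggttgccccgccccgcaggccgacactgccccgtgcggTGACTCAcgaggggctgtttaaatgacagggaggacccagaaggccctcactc
Pi16: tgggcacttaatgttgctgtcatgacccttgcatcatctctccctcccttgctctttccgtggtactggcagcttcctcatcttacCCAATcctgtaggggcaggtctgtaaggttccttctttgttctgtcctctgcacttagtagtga
Col1a2 and Pi16 hold a CCAAT match, Col3a1 a TATAAA match and Lrrc15 a TGANTCA match, while none of these letters occurs in the windows of Fbn1 and Fbln2. Over the 250 bases before the start, 11120 of 32851 RefSeq promoters held CCAAT, 12.4% held TATAAA, 12.6% held GGAATG and 6.75% held TGANTCA. Of the 14 fibroblast markers, 8 had a promoter in the table. Of those 8 promoters, 2 held CCAAT, 1 held TATAAA, 1 held GGAATG and 0 held TGANTCA.

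The label was first set beside markers in the antibody library, which held 18685 genes. The clusters were made from the same genes, so marker levels describe the label and do not test it. Levels are CPM, the UMIs of a gene summed over the cells of a group and divided by all UMIs of that group, scaled to 1000000 UMIs. Col1a1 was at 7803 CPM, Col3a1 at 11445 CPM, Fbn1 at 1906 CPM, Mfap5 at 1767 CPM and Fbln2 at 1885 CPM in the fibroblast cluster. Each of these genes had a UMI in all 96 cells, except Mfap5, a microfibril protein, with 93. In the tumour clusters the same genes stood between 0.464 and 3.52 CPM. In each of the 96 cells the 14 fibroblast markers together held more UMIs than the endothelial, pericyte or hepatoma markers. Of the 43710 CPM of these 14 markers, Col1a1, Col1a2 and Col3a1 gave 7803, 12304 and 11445 CPM, so collagens led that sum.

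**Figure D1:**
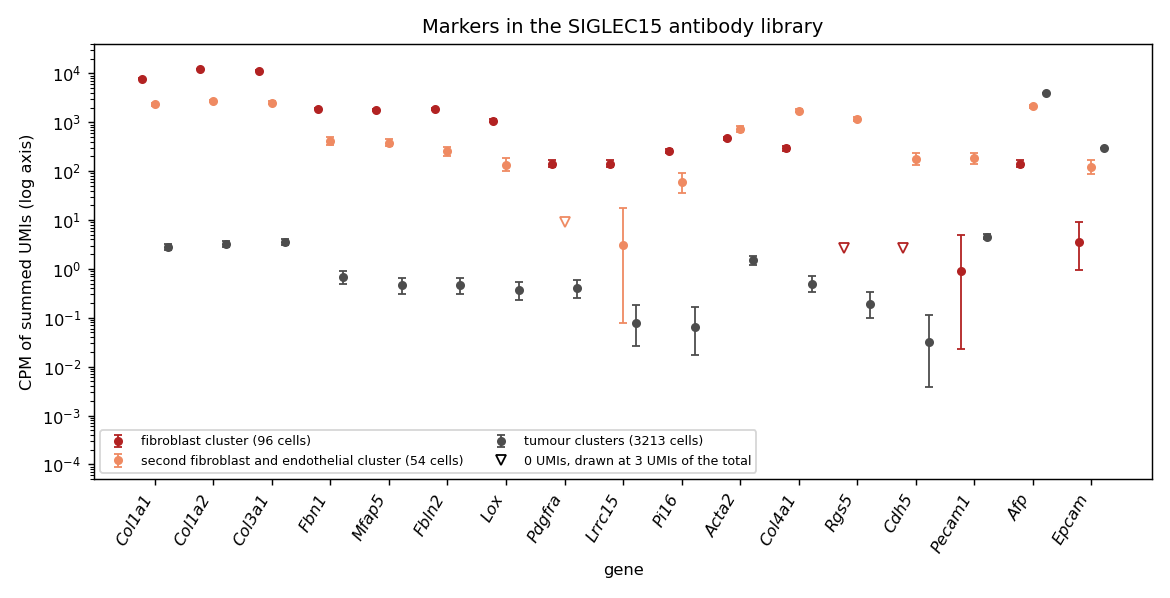
CPM of marker genes (log axis) in the fibroblast cluster, the second fibroblast and endothelial cluster and the pooled tumour clusters of the antibody library, with 95% counting intervals and open triangles for genes at 0 UMIs. Fibrillar collagens and microfibril genes stand highest in the fibroblast cluster, Col1a2 at 12304 CPM against 2732 and 3.28 CPM, while Rgs5 and Cdh5 have 0 UMIs there.

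Many markers of vessel cells had no UMI in the fibroblast cluster. Cdh5, Kdr, Tie1, Emcn, Esam, Cldn5 and Vwf, 7 of the 14 endothelial markers, had 0 UMIs. The pericyte markers Rgs5, Mcam and Higd1b also had 0 UMIs among 1123758, where 3 UMIs would be 2.67 CPM. The summed endothelial list was at 122 CPM in the fibroblast cluster and 2499 CPM in Fibroblast&Endothelial_2, and the summed pericyte list was at 537 and 2456 CPM. Of the 537 CPM, Ndufa4l2 gave 453 CPM in 53 cells. The smooth muscle list summed to 861 CPM in 67 fibroblast cells and to 1259 CPM in the second cluster, and of the 861 CPM Acta2 and Tagln gave 468 and 340 CPM, while Myh11 had 0 UMIs. The leukocyte gene Ptprc was found in 2 of 96 cells, and the NK cell and mast cell lists were at 0. The macrophage list summed to 461 CPM in the fibroblast cluster, 2719 CPM in the second cluster and 7055 CPM in the tumour clusters, with a UMI in 91 of 96 fibroblast cells and up to 13437 CPM in 1 cell. Of the 461 CPM, Apoe, which the hepatoma cells also express, gave 349 CPM, and Adgre1 was at 0. Of the 5 macrophage genes compared with the second cluster, C1qa, C1qb, C1qc and Lyz2 were at least 2-fold higher and Apoe was lower. C1qa was found in 10 fibroblast cells, with 65.5% of its UMIs in 1 cell. The part of such cells in the results was not tested. The monocyte list summed to 1273 CPM, of which Plac8 gave 726 and Vcan, a matrix proteoglycan also listed with the fibroblast genes, gave 543, while Ly6c2 and Ccr2 were at 0. The B cell list summed to 321 CPM, of which Ebf1 gave 320 and Cd79a gave 0.

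The second cluster, Fibroblast&Endothelial_2, was a mixture by the same markers. Of its 54 antibody cells, 29 were led by fibroblast markers, 12 by endothelial, 2 by pericyte and 11 by hepatoma markers. Hepatoma markers summed to 953 CPM in the fibroblast cluster, 6844 CPM in the second cluster and 17752 CPM in the tumour clusters. The median depth was 10856 UMIs per cell in the fibroblast cluster, 2772 in the second cluster and 20428 in the tumour clusters, with median mitochondrial shares of 1.89%, 3.34% and 4.91%. The part of the mixture and of depth in the differences below was not tested. Counts for other choices of second-cluster cells are given at the end. Ratios are given without a test, since the clusters were made from the same genes. Cells of 1 cluster are not replicates.

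The fibroblast cluster was set against the second cluster over 8161 genes with a mean of at least 10 CPM. Of these, 15.5% were at least 2-fold higher in the fibroblast cluster, 14.5% were at least 2-fold lower, and the median log2 ratio was -0.01. Among the genes with the interval bound farthest above 1 was Pdgfra, the receptor for platelet-derived growth factor that marks fibroblasts. Its 160 UMIs in 77 of 96 fibroblast cells gave 142 CPM, against 0 UMIs in the second cluster, at least 15.3-fold higher. Adamts5, a protease that cleaves proteoglycans, was at 566 CPM in fibroblasts and 34.1 CPM in the second cluster (16.6-fold, interval 9.21 to 33.4). Lrrc15, a marker of contractile tumour fibroblasts, was at 142 and 3.10 CPM (45.9-fold, interval 8.12 to 1825, from 1 UMI in the second cluster). Also named by that rule were Ptx3, a secreted pattern recognition protein, at 447 and 31.0 CPM, the Wnt antagonist Sfrp1 at 168 and 9.30 CPM, and Fndc1 at 202 and 12.4 CPM. Fbln2 was at 1885 and 254 CPM, and Lox, which crosslinks collagen and elastin, at 1084 and 136 CPM.

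The genes farthest below 1 were mostly vessel genes. Rgs5, a pericyte gene, had 0 UMIs in fibroblasts and 1166 CPM in the second cluster. Gpihbp1 and Flt1, of capillary endothelium, were at 0.890 and 1.78 CPM in fibroblasts, against 518 and 437 CPM in the second cluster. Plvap was at 6.23 and 326 CPM, Egfl7 at 1.78 and 276 CPM, Pecam1 at 0.890 and 186 CPM, and Ubd at 0.890 and 310 CPM. Mcam, Trp53i11, Cdh5, Emcn and Kdr had 0 UMIs in fibroblasts and between 158 and 195 CPM in the second cluster.

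These ratios moved with the cells taken from the second cluster. Against its 14 cells led by endothelial or pericyte markers, a choice made after seeing the data, Fbln2 was 136-fold and Lox 26.1-fold higher in fibroblasts. There Lrrc15 and Pdgfra had 0 UMIs, so each was at least 3.43-fold higher. Fbln2 and Pdgfra are among the fibroblast markers used to choose these cells, so their values there are partly built in. The 3.43-fold bounds come from 3 UMIs set over the smaller UMI total of these 14 cells.

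Against the pooled tumour clusters, 7897 genes were compared. Of these, 24.8% were at least 2-fold higher in fibroblasts and 15.1% at least 2-fold lower, and the median log2 ratio of all genes was 0.13. Col1a2 was at 12304 CPM in fibroblasts and 3.28 CPM in tumour cells, and Postn, a matrix protein of remodelling tissue, at 1519 and 0.288 CPM. Ogn, a small leucine-rich proteoglycan, was at 465 CPM in 81 fibroblast cells and at 0 UMIs in 3213 tumour cells, at least 9699-fold higher. Dclk1 and Vgll3 also had 0 UMIs in tumour cells and stood at 187 and 182 CPM in fibroblasts. Serpinh1, the collagen chaperone, was at 2228 and 0.512 CPM, Fstl1 at 2506 and 0.592 CPM, Cthrc1 at 699 and 0.112 CPM, and Rarres2, the chemerin precursor, at 643 and 0.0960 CPM. Meg3, a maternally expressed imprinted RNA, was at 1217 CPM in 89 of 96 fibroblast cells, 608 CPM in the second cluster and 0.256 CPM in tumour cells. H19, another imprinted RNA, chosen after its values were seen, was at 134, 18.6 and 0.0960 CPM, although it was listed as a hepatoma marker.

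Of 13 hepatoma markers compared, 11 were at least 2-fold lower in fibroblasts than in tumour cells, 1 (H19) was higher and 1 was within 2-fold. The genes named next are the 12 with the interval farthest below 1, Xist among them, whose values are given with the sex chromosomes. Afp, the fetal albumin-like protein, was at 142 CPM in fibroblasts and 4038 CPM in tumour cells, Apoa1 at 13.4 and 612 CPM, Ttr at 8.01 and 533 CPM, and Fgb at 82.8 and 2997 CPM. Apoc2 was at 34.7 and 1204 CPM, Igfbp1 at 131 and 3504 CPM, and Epcam, the epithelial adhesion molecule, at 3.56 and 300.4 CPM. Tff2 was at 7.12 and 318 CPM, Rhox5 at 24.0 and 775 CPM, Tmem252 at 0.890 and 135 CPM and Cxcl15 at 0.890 and 113 CPM. An Afp UMI was found in 75 of 96 fibroblast cells, and 14 of the 15 immune clusters carried Afp between 110 and 952 CPM, so the level in fibroblasts was within the range of those clusters. In the other direction Col1a1 was at 2.83 CPM in tumour cells.

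**Figure D2:**
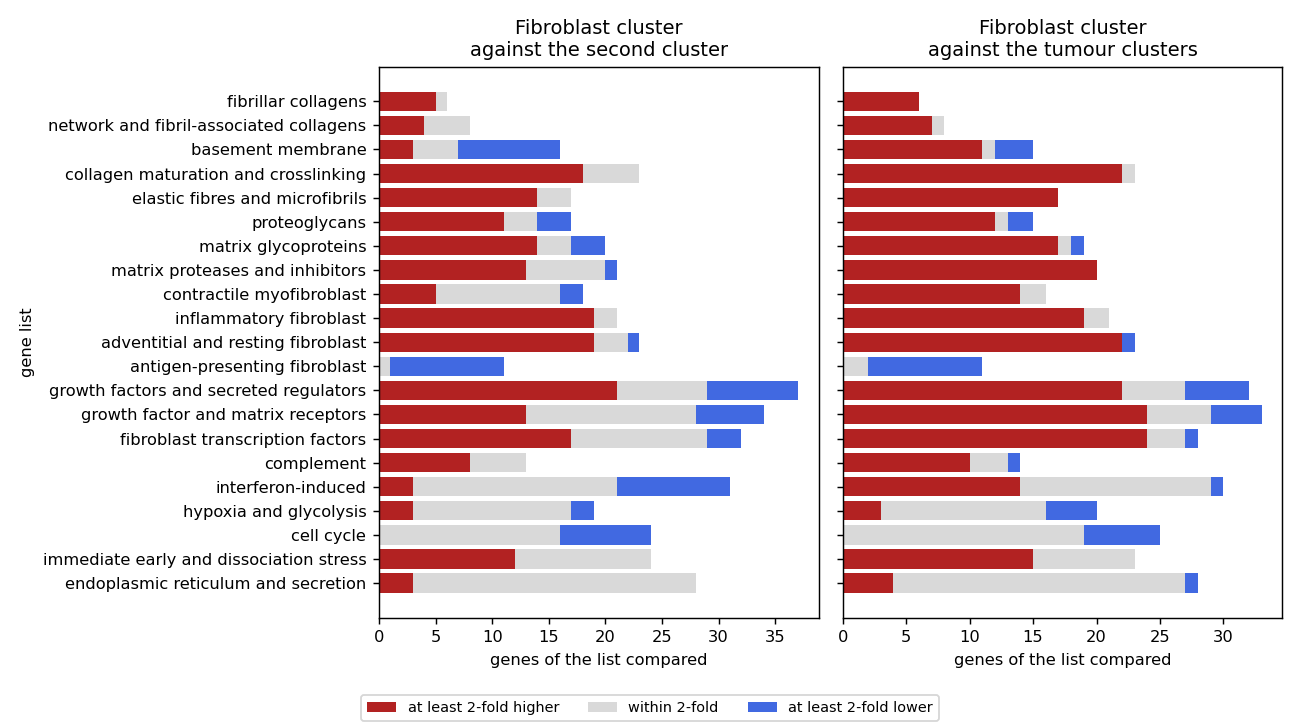
Number of genes in each of 21 gene lists that were at least 2-fold higher, within 2-fold or at least 2-fold lower in the fibroblast cluster, against the second cluster (left) and against the tumour clusters (right). Against the second cluster 19 of 21 inflammatory genes are higher and 0 are lower, while 10 of 11 genes of the antigen-presenting list are lower. Over all genes compared with the second cluster, 15.5% are higher and 14.5% lower.

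Genes are next described by role, with values in the fibroblast cluster, the second cluster and the tumour clusters in that order. Over all genes compared, 15.5% were at least 2-fold higher and 14.5% at least 2-fold lower than in the second cluster. Against tumour cells these shares were 24.8% and 15.1%. A list count near these shares says nothing particular about its list. Of 9 fibrillar collagens, 6 passed the 10 CPM filter and 5 were at least 2-fold higher than in the second cluster, with a median log2 ratio of 1.76. Col1a2 ran between 2454 and 31891 CPM over the 96 cells, with a median of 11784, and Col3a1 between 2182 and 29361 CPM with a median of 11627. Both collagens were thus present in every cell, at widely differing levels. Col5a2, which limits fibril width, was at 1265, 471 and 0.432 CPM. Col5a3 was at 348 and 248 CPM and stayed within 2-fold of the second cluster. Col2a1 and Col11a2, of cartilage, had 0 UMIs. The collagen VI chains were within 2-fold of the second cluster, Col6a3 at 627 and 599 CPM, whereas the fibril-associated Col14a1 was at 881 and 211 CPM and Col12a1 at 426 and 133 CPM.

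Of the 24 genes for collagen maturation and crosslinking, 23 passed the filter. Against the second cluster 18 were at least 2-fold higher and 0 lower, and against tumour cells 22 were higher and 0 lower. Plod2, which hydroxylates lysines for crosslinking, was at 258, 40.3 and 0.0320 CPM, and the prolyl hydroxylase subunit P4ha2 at 254 CPM in fibroblasts and 40.3 CPM in the second cluster. Loxl1, an elastin crosslinker, was at 551, 105 and 0.192 CPM. Creb3l1, a transcription factor of collagen secretion, was at 174, 31.0 and 1.33 CPM. General secretory genes differed less. Of 28 endoplasmic reticulum genes, 3 were at least 2-fold higher than in the second cluster and 25 were within 2-fold. The 3 of 28 are a smaller share than the 15.5% higher over all genes, so they are given for their values only. The 3 were Kdelr3 at 228 and 65.1 CPM, Sec23a, a coat protein of vesicles that carry collagen, at 80.1 and 24.8 CPM, and Sil1 at 32.9 and 12.4 CPM.

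Elastic fibre genes stood higher as a group. Of 17 genes, 14 were at least 2-fold higher than in the second cluster and all 17 were at least 2-fold higher than in tumour cells, with median log2 ratios of 2.05 and 10.17. Fbn1, the fibrillin of microfibrils, ran at 1906, 412 and 0.672 CPM. Eln, the elastin gene, was at 234, 37.2 and 0.176 CPM and was found in 34 of 96 cells. Efemp1 was at 310, 40.3 and 0.0800 CPM. Among 17 proteoglycans compared with the second cluster, 11 were higher and 3 lower. Dcn, which binds collagen fibrils, was at 2949, 574 and 23.8 CPM. Has1, a hyaluronan synthase, was at 153, 9.30 and 0.112 CPM, and Has2 at 42.7 CPM against 0 UMIs in the second cluster. The lower members were Cspg4, a pericyte proteoglycan, at 10.7 and 124 CPM, Sdc1 at 25.8 and 96.1 CPM, and Fmod at 6.23 and 15.5 CPM, from 7 and 5 UMIs.

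Of 20 matrix glycoproteins, 14 were higher than in the second cluster and 3 were lower. Sparc, a collagen-binding glycoprotein, was at 15423, 5975 and 152 CPM. Tnxb, a tenascin of loose connective tissue, was at 515, 65.1 and 0.544 CPM, and Thbs2 at 469, 71.3 and 0.0800 CPM. Fn1, fibronectin, was at 4437, 2329 and 1273 CPM. Sparcl1 was lower at 9.79 CPM against 214 CPM in the second cluster, and Igfbp7, abundant in vessel cells, at 1305 against 2645 CPM. Basement membrane genes went the other way, with 3 of 16 higher and 9 lower than in the second cluster and a median log2 ratio of -1.37. Col4a1 and Col4a2, the main basement membrane collagens, were at 291 and 150 CPM in fibroblasts, against 1740 and 1005 CPM in the second cluster. Lama2 was higher, at 73.0 CPM against 3.10 CPM, from 1 UMI in the second cluster. Against tumour cells 11 of 15 basement membrane genes were higher and 3 lower, the latter near the 15.1% lower over all genes.

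Of 21 proteases and inhibitors, 13 were higher than in the second cluster and 1, the protease inhibitor Serpine2, was lower at 66.7 against 146 CPM. Mmp2, a gelatinase, was at 463, 136 and 0.112 CPM. Mmp3, stromelysin, was at 266, 24.8 and 0.0960 CPM and was found in 32 of 96 cells. Of these 32 cells, 28 also had Col4a1, which was found in 58 of all 96 cells. Timp1, an inhibitor of these proteases, was at 1163, 530.2 and 35.5 CPM. Fap, a protease often used to mark tumour fibroblasts, was at 54.3, 34.1 and 0 CPM and was within 2-fold of the second cluster.

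Contractile genes did not separate the 2 stromal clusters as a group. Of 18 genes, 5 were at least 2-fold higher, 2 lower and 11 within 2-fold, with a median log2 ratio of 0.23. Acta2, smooth muscle actin, was at 468 CPM in fibroblasts and 732 CPM in the second cluster. Tagln was at 340 and 304 CPM, and Myh11, the smooth muscle myosin, had 0 UMIs in fibroblasts and 93.0 CPM in the second cluster. The higher genes were Lrrc15, Inhba, Palld, Itgb5 and Vim, with Vim, an intermediate filament, at 4531 and 2006 CPM.

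Genes of the inflammatory list, which holds chemokines and cytokines among others, were higher in 19 of 21 cases, with 0 lower and a median log2 ratio of 2.37. Ccl2 and Ccl7, which attract monocytes, were at 653 and 677 CPM in fibroblasts, against 58.9 and 62.0 CPM in the second cluster. In Macrophage_3, the next highest cluster for both genes, they were at 546 and 413 CPM. Cxcl1, which attracts neutrophils, was at 583, 52.7 and 19.3 CPM, and Il6 at 51.6, 3.10 and 0.0320 CPM, in 27 cells. When cells were weighted alike, the ratio to the second cluster was 3.13 for Ccl2, 5.36 for Ccl7 and 6.11 for Cxcl1, in place of 11.1, 10.9 and 11.1 from summed UMIs. Ptgs2, the inducible prostaglandin synthase, was at 192, 15.5 and 0.720 CPM, and Ccl11, eotaxin, at 143, 12.4 and 0.0480 CPM. Cxcl12, the ligand of Cxcr4, was at 252, 109 and 0.128 CPM. Saa3 was listed at 103 UMIs, of which 58.2% came from 1 of 4 cells.

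Adventitial and resting genes were higher in 19 of 23 cases, with 1 lower, Col15a1, at 34.7 against 264 CPM. Pi16 was at 259, 58.9 and 0.0640 CPM, Dpt, a dermatopontin that binds decorin, at 873, 155 and 0.352 CPM, and Penk at 65.0 CPM against 0 UMIs in the second cluster. Ly6a was at 2601, 1011 and 106 CPM. Complement genes were higher in 8 of 13 cases and lower in 0. C4b was at 509, 115 and 94.9 CPM and C3 at 649, 400 and 757 CPM, so C3 was within 2-fold of both.

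Of 37 growth factors and secreted regulators, 21 were higher than in the second cluster and 8 were lower. Igf1 was at 337, 40.3 and 0.288 CPM, Fgf7, which acts on epithelial cells, at 55.2, 3.10 and 0.0800 CPM, and Ccn3 at 166, 15.5 and 0.112 CPM. Slit2 was at 42.7 CPM against 0 UMIs in the second cluster. Pdgfb, the ligand that recruits pericytes, had 0 UMIs in fibroblasts and 102 CPM in the second cluster, and Tgfb1 was at 32.0, 121 and 52.1 CPM. Of 34 receptors, 13 were higher and 6 lower, the latter near the 14.5% lower over all genes. Tgfbr3, betaglycan, was at 137, 15.5 and 3.95 CPM, and Fgfr1 at 247, 40.3 and 5.10 CPM. Pdgfrb, shared with pericytes, was at 40.9, 195 and 0.0640 CPM, so the ratio to the second cluster lay above 1 for Pdgfra and below 1 for Pdgfrb. Itga1 was at 13.4 and 285 CPM.

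Of 32 transcription factors, 17 were higher than in the second cluster and 3 lower. Prrx1, a mesenchymal homeobox factor, was at 453, 161 and 0.112 CPM and was found in 94 of 96 cells. Twist1 was at 157, 68.2 and 0.0480 CPM and Runx1 at 241, 62.0 and 1.61 CPM. The lower genes were Foxs1, Heyl and Nr2f2, Heyl, a Notch target, at 2.67 against 62.0 CPM.

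In the antigen-presenting list 10 of 11 genes were lower than in the second cluster and 0 higher, but 5 of the 10, Krt8, Krt18, Krt19, Ezr and Slpi, are epithelial genes whose level was highest in the tumour clusters among these 3 groups. The invariant chain Cd74 was at 65.0, 375 and 297 CPM, with 65.8% of its fibroblast UMIs in 1 cell, and H2-Ab1 at 57.0, 124 and 62.1 CPM. In the interferon list 18 of 31 genes were within 2-fold of the second cluster, 10 were lower and 3 higher. Cxcl9, an interferon-gamma target, was at 145 CPM in fibroblasts and 2512 CPM in the second cluster. Against tumour cells, 14 of 30 interferon genes were higher and 1 lower. The class I gene H2-K1 was at 610 CPM in 94 of 96 fibroblast cells, 800.0 CPM in the second cluster and 4.56 CPM in tumour cells, while H2-D1 was at 670.1, 1380 and 586 CPM. The checkpoint ligand gene Cd274, chosen after its values were seen, was at 0.890, 3.10 and 4.93 CPM.

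Immediate early genes, which respond to growth signals and also to tissue dissociation, were higher than in the second cluster in 12 of 24 cases and lower in 0. Fos was at 1200.4, 502 and 372 CPM and Jun at 1386, 549 and 191 CPM. Of 19 hypoxia and glycolysis genes, 3 were higher, 2 lower and 14 within 2-fold, near the shares over all genes of 15.5% higher and 14.5% lower. Adm, adrenomedullin, was among the higher, at 215, 27.9 and 0.400 CPM. Cell cycle genes were lower than in the second cluster in 8 of 24 cases and higher in 0. After each cell was thinned to 1000 UMIs, 5.46% of fibroblast cells, 8.68% of second-cluster cells and 10.0% of tumour cells kept a Mki67 UMI, against 20.8%, 24.1% and 41.9% unthinned. The thinned shares used all 96 fibroblast cells, 39 of the second cluster and 3175 tumour cells.

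Fibroblast cells differed among themselves along the contractile and adventitial lists. The summed contractile list ranged between 1526 and 22739 CPM over the 96 cells and the adventitial list between 1336 and 20349 CPM. The highest cell over the lowest was thus 14.9 and 15.2. Other lists varied too: without a cell at 0, this ratio ran between 9.58 for elastic fibres and 63.2 for complement. The Spearman correlation between these 2 lists was -0.55 over 96 cells of 1 library, and -0.54 after thinning each cell to 3000 UMIs. The shares add to a fixed total per cell, so some negative relation comes with the unit. The complement list went with the adventitial list, at a Spearman correlation of 0.61 (0.46 thinned), and against the contractile list, at -0.63 (-0.58 thinned). Depth itself had a Spearman correlation of 0.31 with the contractile, -0.18 with the adventitial and -0.36 with the complement list. The inflammatory list had a Spearman correlation of 0.36 with the adventitial and -0.23 with the contractile list. For the hypoxia and glycolysis list these correlations were -0.43 and 0.36.

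**Figure D3:**
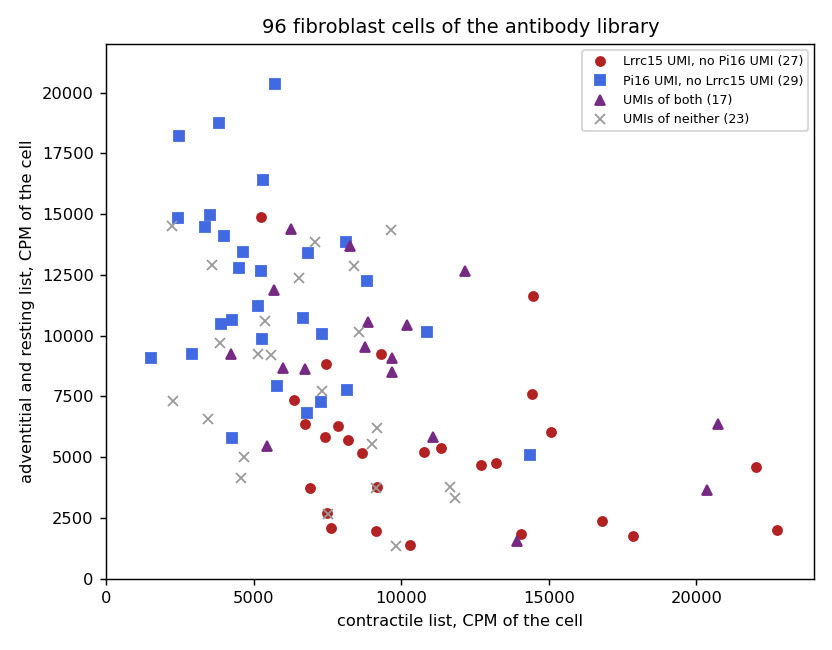
Each point is 1 of the 96 fibroblast cells of the antibody library, placed by the CPM of its summed contractile list and of its summed adventitial list, and marked by whether Lrrc15 and Pi16 UMIs were found. Lrrc15 belongs to the first list and Pi16 to the second, and cells with Lrrc15 alone lie lower on the adventitial axis (median 5158 CPM) than cells with Pi16 alone (11241 CPM).

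Single genes were also set along these sides. Lrrc15 was found in 44 cells and Pi16 in 46, with 17 cells holding both and 23 neither. The 27 cells with Lrrc15 and no Pi16 had a median of 9321 CPM on the contractile list and 5158 CPM on the adventitial list, and the 29 with Pi16 and no Lrrc15 had 5258 and 11241 CPM. Lrrc15 is a member of the contractile list and Pi16 of the adventitial one, so part of this difference is built in. The Spearman correlation was 0.58 between Lrrc15 and Cthrc1, a collagen-associated protein outside the contractile list, and -0.61 between Cthrc1 and the complement gene C3. Dpt and Tnxb had a Spearman correlation of 0.77, the highest of the 20 pairs computed, and Acta2 and Dpt -0.47. After thinning to 3000 UMIs these last pairs, in that order, gave 0.33, -0.43, 0.57 and -0.43.

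Some secreted factors sat in few cells. Cxcl14, a chemokine of resting skin fibroblasts, was found in 17 of 96 cells, with up to 7899 CPM in 1 cell, and 22.9% of its UMIs came from 1 cell. Of those 17 cells, 14 also held Sfrp1, 3 held Pi16 and 4 held Lrrc15. Among all 96 cells, Sfrp1 was found in 36, Pi16 in 46 and Lrrc15 in 44. Ccl2 was found in 58 cells and Ccl7 in 75, with 51 cells holding both and a Spearman correlation of 0.62. Thinned to 1000 UMIs, Cxcl14 was kept by 12.03% of cells, Lrrc15 by 12.1%, Pi16 by 17.5% and Acta2 by 16.9%, against 17.7%, 45.8%, 47.9% and 39.6% unthinned. In the second cluster the same thinned shares were 0.935%, 2.41%, 2.27% and 26.1%, so that of Acta2 was higher there than in fibroblasts. In tumour cells they were under 0.2%, at 0.00693%, 0.00657%, 0.00695% and 0.138%.

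Transcripts of the sex chromosomes were also compared, and the Y-linked ones were chosen after their values were seen. The mice were labelled male. Xist, the RNA that coats the inactive X chromosome, was at 9.79 CPM in fibroblasts, 189 CPM in the second cluster and 478 CPM in the pooled tumour clusters, of which Tumor_4 was at 88.3 CPM, below the second cluster. The Y-linked genes Ddx3y, Eif2s3y, Kdm5d and Uty together had 104 UMIs in 58 of 96 fibroblast cells, or 92.6 CPM, against 55.8 CPM in the second cluster and 15 UMIs, or 0.240 CPM, in the tumour clusters. Among the 15 immune clusters the Y-linked sum was between 44.0 and 176 CPM, so fibroblasts stood among the immune clusters. Xist there was between 0 and 47.2 CPM, except in MDSC_5 with 418 CPM, where Afp was at 3049.5 CPM. The summed hepatoma list of the second cluster, given above, lay between the fibroblast level and that of the pooled tumour clusters.

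**Figure D4:**
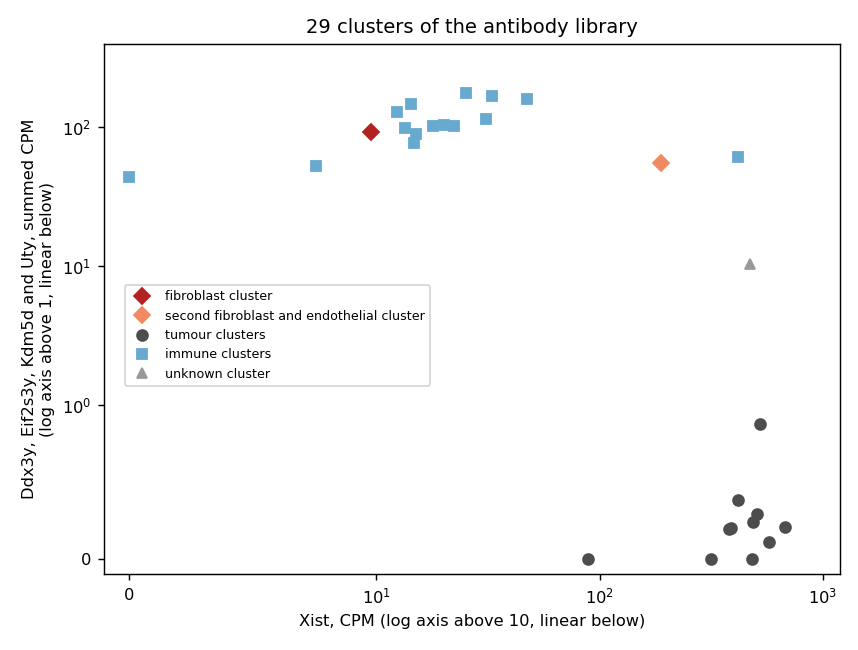
Xist CPM against the summed CPM of 4 Y-linked genes in 29 clusters of the antibody library, on axes that are linear near 0 and logarithmic above. The fibroblast cluster at 9.79 and 92.6 CPM lies among the immune clusters, and the tumour clusters lie under 1 CPM of Y-linked genes, with Xist between 88.3 CPM in Tumor_4 and 679 CPM in Tumor_7, against 189 CPM in the second cluster.

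Between treatments, fibroblasts made up 1.75% of all antibody cells (96 of 5482, interval 1.42 to 2.13) and 0.902% of all IgG cells (52 of 5765, interval 0.674 to 1.18). The ratio of shares, antibody over IgG, was 1.94 (interval 1.37 to 2.78). Over cells of non-immune clusters the shares were 2.77% and 1.12%, a ratio of 2.47 (1.74 to 3.53). Of the cells of both fibroblast and endothelial clusters, 64.0% were in the fibroblast cluster with antibody and 51.5% with IgG, a ratio of 1.24 (0.878 to 1.78). The second cluster was at 0.985% and 0.850% of all cells, a ratio of 1.16 (0.773 to 1.74). With 1 library per group, a difference between treatments and one between libraries, tumours or cell loading cannot be told apart. The libraries shared 11 cell barcodes, 0 of them in the fibroblast cluster.

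Expression between libraries was compared for 105 genes, none of which is among the 5 fibroblast markers given first. In the fibroblast cluster 15 of them reached a mean of 50 CPM, and their depth was similar, with a median of 10856 UMIs per antibody cell and 11489 per IgG cell. At least 2-fold higher with antibody were 0 genes (0.00%), and at least 2-fold lower 0 genes (0.00%). The ratios lay between 0.712 and 1.42, with 9 above 1 and 6 below. Sulf1, an enzyme that trims heparan sulphate on the cell surface and in the matrix, was at 182 CPM with antibody (205 UMIs, 77 of 96 cells) and 128 CPM with IgG (88 UMIs, 33 of 52 cells). Its ratio was 1.42 (interval 1.10 to 1.85). Sulf1 was at 31.0 and 8.17 CPM in the second cluster (10 and 1 UMIs) and at 0.0160 and 0.0510 CPM in tumour cells, so in both libraries it was highest in fibroblasts among these 3 groups. Shared genes under the 50 CPM minimum were not all highest in fibroblasts. Pi15 was highest there, at 18.7 and 13.1 CPM (21 and 9 UMIs). Pi15 was at 3.10 and 0 CPM in the second cluster and at 0 in tumour cells of both libraries. Gsta3 was lowest in fibroblasts, at 7.12 and 20.4 CPM (8 and 14 UMIs). In the second cluster Gsta3 was at 37.2 and 40.9 CPM, and in tumour cells at 179 and 217 CPM. The clusters were made from the same genes, so these levels describe the IgG fibroblasts and do not test their label.

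The interval of the ribosomal gene Rpl7 lay below 1, at 0.835 (0.782 to 0.892), and those of the other 13 genes included 1. Dst, a cytoskeletal linker, was at 190.4 CPM with antibody and 166 CPM with IgG (ratio 1.14, interval 0.908 to 1.45). Cox5b, of the respiratory chain, was at 395 and 373 CPM (1.06, 0.905 to 1.24), and Arfgef1 at 59.6 and 42.3 CPM (1.41, 0.899 to 2.26). Snhg6, a noncoding host of small nucleolar RNAs, was at 49.8 and 70.0 CPM (0.712, 0.475 to 1.07). The intervals of Arfgef1 and Snhg6 reach past 2-fold, so a 2-fold difference could not be told from none at this depth. Eloc, Smap1, Rb1cc1, Phf3, Tram1, Tcea1, Mrpl15, Cops5 and Uggt1 had ratios between 0.839 and 1.25.

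**Figure D5:**
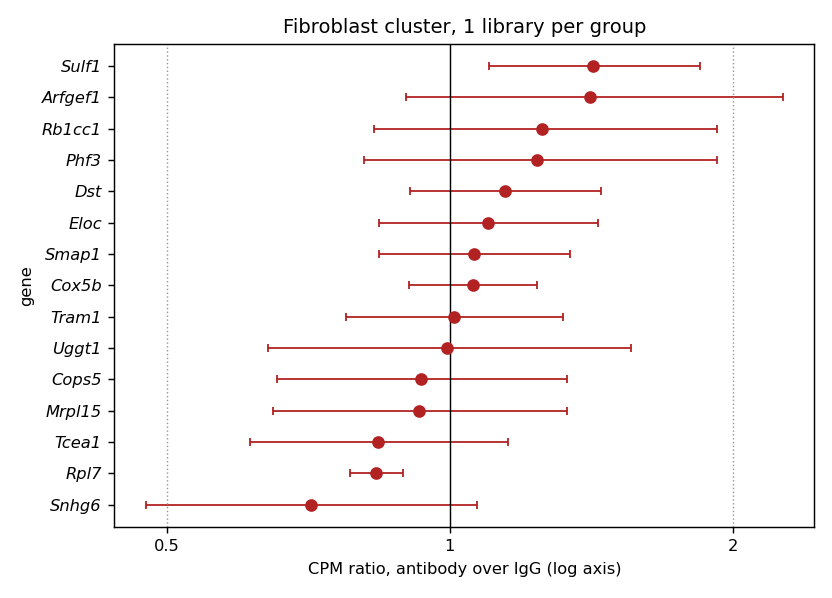
CPM ratio of antibody over IgG (log axis) in the fibroblast cluster for the 15 shared genes of at least 50 CPM, with 95% counting intervals and dotted lines at 2-fold. Sulf1 lies above 1 at 1.42 and Rpl7 below 1 at 0.835, and the intervals of the other 13 cross 1.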

How the data were processed

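For each library the authors deposited cell names, each with 1 of 30 cluster names, and a matrix of natural log values: the log of 1 plus the UMI share of a gene in a cell, scaled to 10000. The submitters' processing notes name Cell Ranger 2.1.1. Neither genome build nor clustering method is stated in the labels. For IgG, 105 genes with complete values were used, and the other genes were not analysed here.

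Whole UMI counts were recovered from these values (Python 3.11.15, numpy 2.4.6, pandas 2.3.3, scipy 1.17.1; tolerance 0.001). IgG depth was recovered from the 105 genes, in 5739 of 5765 cells and in 45 of 49 cells of the second cluster; cells without it were left out of IgG levels. The same step on the antibody library gave the true depth in 5440 cells, 96 of 96 fibroblasts included, another depth in 8 and none in 34. UMIs were summed per cluster and scaled to CPM. A gene at 0 was set to 3 UMIs, which gives a bound. Genes needed a mean of 10 CPM, or 50 CPM between libraries. Ratios had exact conditional 95% intervals, and no p-value was computed. The intervals were run on simulated counts that held counting error only. That run cannot show how they cover the spread between cells. No doublet caller was run. An alternative left out cells with Ptprc UMIs or a high hepatoma share, and others changed the minimum CPM, the fold, the weighting of cells and the cells of the second cluster. Genes named were, per direction, the 12 whose interval lay farthest from 1 among those with 50 UMIs and 50 CPM, without ribosomal, mitochondrial and haemoglobin genes and unnamed gene models, plus list members and up to 10 shared genes. There were 21 gene lists and 22 marker lists. Members, lists and rules were chosen with earlier results of these data known. Figures used matplotlib 3.10.9.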

Additional observations from a re-analysis of the deposited data

Results flagged for a closer look

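The ribosomal gene Rpl7 had antibody to IgG ratios on opposite sides of 1 in the stromal clusters. In the fibroblast cluster it was at 1917 CPM with antibody and 2295 CPM with IgG (ratio 0.835, interval 0.782 to 0.892). In the second cluster it was at 2688 and 2255 CPM (1.19, 1.04 to 1.37), and in tumour cells at 3952 and 4523 CPM (0.874, 0.869 to 0.878). The difference between clusters was not tested, and there was 1 library per group.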

How the results depend on the processing

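No paired analysis was possible because there was 1 library per group. Among the results recomputed (counts of genes, cluster shares, the genes named against each cluster, and Sulf1, Rpl7, Snhg6, Dst, Cox5b and Arfgef1 between libraries) none was reversed. Cox5b was itself the median of the 15 shared genes compared, so setting the median ratio to 1 put it at 1.00 by construction. The other shared genes were not recomputed, and list members were recomputed only with other minimums and folds. Against the second cluster, 1263 of 8161 genes were at least 2-fold higher in fibroblasts. At a 50 CPM minimum these were 422 of 2836 (14.9%), and past 4-fold 372. Lower were 1187, with 236 (8.32%) and 522. With cells weighted alike, 1848 of 7951 (23.2%) were higher and 1602 (20.15%) lower. Against second-cluster cells of at least 2000 UMIs, 1323 were higher and 1240 lower, and against those of low hepatoma share 1261 and 1499. Against the 14 second-cluster cells led by endothelial or pericyte markers, 1011 of 7459 were higher and 1871 lower. These choices of cells were made after seeing the data. Against tumour cells 1956 of 7897 were higher, with 654 of 2741 at 50 CPM, 1044 past 4-fold and 4004 of 12966 with no minimum. Lower were 1189, with 388, 499 and 2081 over the same numbers of genes. Of 431 list members compared with the second cluster, 197 (45.71%) were higher, against 15.5% over all genes, and 95 were past 4-fold. Lower were 65 (15.08%), near the 14.5% over all genes. Past 4-fold 30 were lower (6.961%, near the 6.396% over all genes). At 50 CPM 42 of 307 were lower (13.68%, against 8.32% over all genes). Against tumour cells 39 of 415 were lower (9.398%, against 15.1% over all genes). There 22 of 281 were lower at 50 CPM, and 16 past 4-fold. These minimums and folds test fewer genes or ask for more. The ratio of shares was 1.94 over all cells and 1.24 over both stromal clusters. Unthinned shares were 39.6% for Acta2, 45.8% for Lrrc15 and 47.9% for Pi16. Between libraries, 4 of 47 genes were past 2-fold at a 10 CPM minimum, against 0 of 15. Fbln2 was 7.41-fold higher than in the second cluster, 11.96-fold with cells weighted alike and 14.8-fold against its cells of low hepatoma share. The cause of the other moves was not tested. Depth limits low genes of the second cluster, which had 322498 UMIs against 1123758 in fibroblasts.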
